A study of Rattus norvegicus with 6 samples.

Results

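The genes described here are 10 genes that set whether a hepatocyte under stress lives or dies by apoptosis: Bcl2, Bcl2l1, Mcl1, Bax, Bak1, Bcl2l11, Bbc3, Pmaip1, Bid and Fas. They were chosen by name, and each was read from the probe set that the platform annotation ties to its symbol. All 10 had such a probe set, 1 each, among 15037 genes tested. The arrays came from primary hepatocytes of male, eight-week-old Sprague-Dawley rats, plated on collagen in William's E medium with serum. Cells in 3 cultures received 50 µM trimethylamine N-oxide (TMAO), a product of gut microbes and liver enzymes, for 30 h. Cells in the other 3 cultures were left untreated (Control). The titles call the arrays biological repeats, but no source used here says whether each came from an animal of its own, so p-values measure the spread between these arrays only.

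Proteins of the BCL2 family meet at the outer membrane of the mitochondrion. BCL2, BCL-XL and MCL1 hold the membrane closed, BAX and BAK perforate it, and the small BH3-only proteins tip the balance towards perforation, after which cytochrome c leaves and caspases start. Death receptors such as Fas start the same caspases from the cell surface, and in hepatocytes this route usually needs the BH3-only protein BID to reach the mitochondrion. Prolonged stress of the endoplasmic reticulum (ER) is known to engage this machinery through the transcription factor CHOP, encoded by Ddit3, for which Bcl2l11 and Bbc3 have been described as targets.

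Values are log2 signals as deposited, and array medians over all 24871 probe sets ran from 5.53 to 5.61. Between any pair of arrays, signals correlated across genes, which are not independent replicates, by 0.985 to 0.993. On the leading principal component, with 30.8% of the variance, TMAO replicate 3 (0.87) lay away from the other 5 arrays. Control replicate 3 lay furthest on the opposite side (-0.42), and the remaining arrays ran from -0.18 to -0.05. Of 9 hepatocyte markers measured, 7 were not near background in either group, among them Alb, the albumin gene, at 11.92 in TMAO and 11.89 in Control cells. Cyp2e1, a cytochrome P450, was near background in both groups (4.69 in TMAO and 4.94 in Control cells) and Cps1, of the urea cycle, in Control cells (4.85, against 5.12 in TMAO cells). "Near background" is used where a group mean was under 4.95, that is within 1 log2 unit of the negative control median (3.95, over 1153 probe sets). The negative controls spread widely, with a 95th percentile of 7.26, so a mean above 4.95 can still lie among them. Of the 6 lymphocyte and neutrophil markers measured, all 6 were near background in both groups.

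Of the 10 genes, 0 passed limma's test of TMAO against Control cells at an adjusted p of 0.05, which 4 of all 15037 genes (0.0266%) passed. The adjusted p-values of the 10 began at 0.876. At an unadjusted p under 0.05, 1 of the 10 differed, Bcl2, which was higher under TMAO, against 5.49% of all genes in either direction, 3.01% higher and 2.48% lower. By both limits together, at least 1.5-fold and an unadjusted p under 0.05, 0 of the 10 differed, against 0.658% of all genes. The 3 TMAO arrays lay all above the 3 Control arrays for 1 gene, again Bcl2, where 5.51% of all genes were so placed, and all below them for 0 of the 10, against 5.33% (10.8% in either direction). The mean was higher under TMAO for 7 of the 10 genes, as for 49.0% of all genes. Their median difference, TMAO minus Control, was 0.08 on the log2 scale, where that of all genes was -0.0035, and the median size of a difference was 0.14, where that of all genes was 0.10. Each RNA sample pools many cells, so fewer cells of a type and less RNA per cell cannot be told apart.

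**Figure D1:**
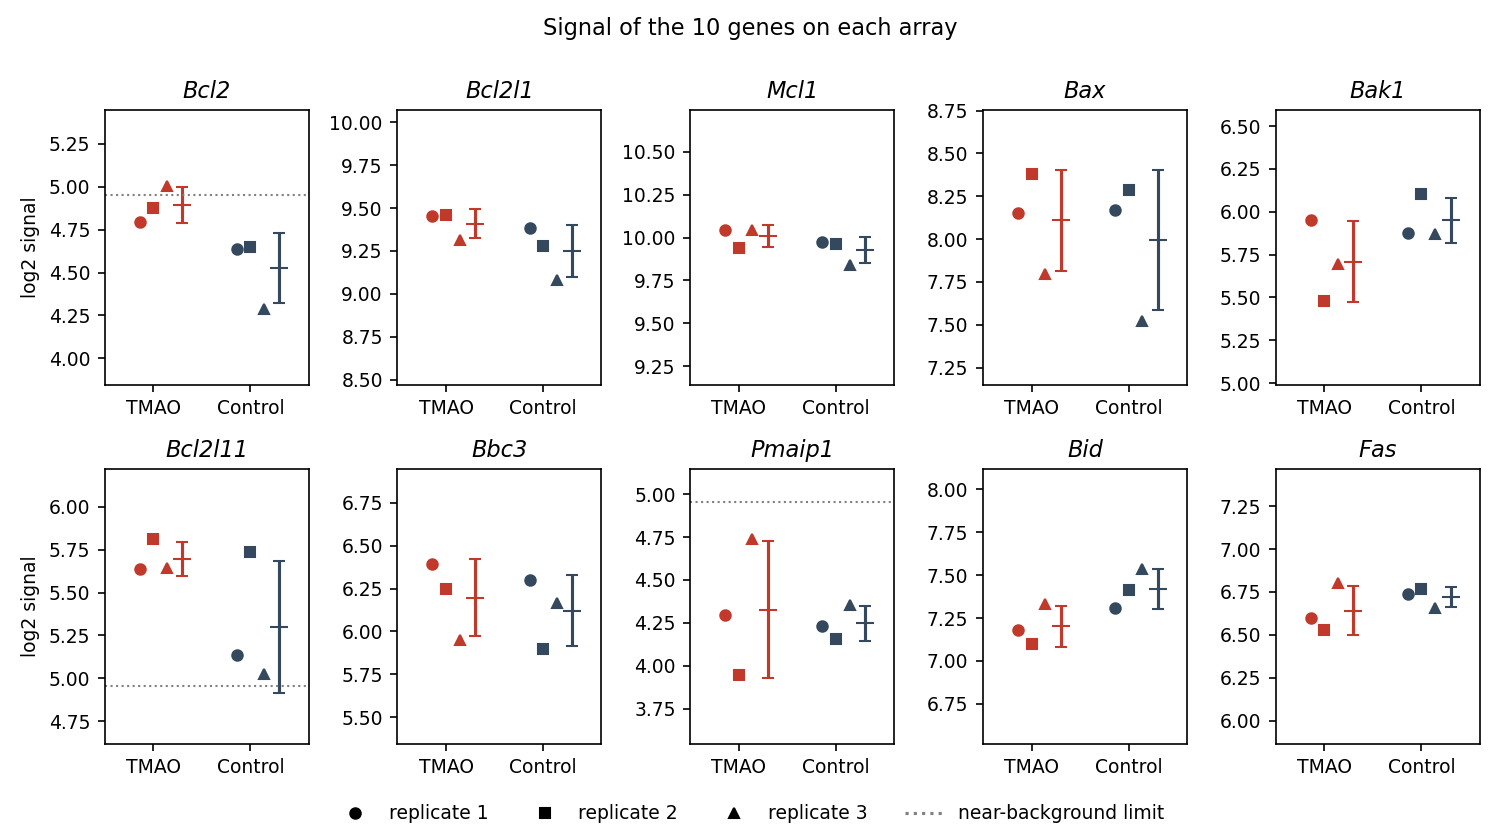
Log2 signal of each of the 10 genes on each array, with the 3 TMAO arrays on the left of each panel and the 3 Control arrays on the right. Symbols give the replicate number, dashes and bars the mean ± SD of 3 arrays, and dotted lines the near-background limit of 4.95; every panel spans the same height in log2 units. The groups are apart for Bcl2 alone among these 10.

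The anti-apoptotic genes come first. Bcl2 (probe set TC1300001206.rn.2), the founding survival gene of the family, had log2 signals of 4.80, 4.88 and 5.005 on the TMAO arrays, against 4.63, 4.65 and 4.29 on the Control arrays. All 3 TMAO values were above all 3 Control values, with Control replicate 3 the lowest of the 6. The means were 4.89 ± 0.11 in TMAO and 4.52 ± 0.20 in Control cells (SD, n = 3 each), a difference of 0.37 ± 0.13 (SE), or 1.29-fold, with an unadjusted limma p of 0.0223 and an adjusted p of 0.876. The exact two-sided permutation test over the 6 arrays gave p = 0.1, the smallest it allows with 3 against 3. Both means were near background, above 67.8% of the negative controls on average over the arrays, so the size of this difference is uncertain. It came to 0.25 without Control replicate 3, and its unadjusted limma p was not under 0.05 without that array or without TMAO replicate 3.

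Bcl2l1 (TC0300004492.rn.2), which encodes BCL-XL, the survival protein on which hepatocytes are known to depend, gave a bright and steady signal. It had 9.46, 9.46 and 9.31 on the TMAO arrays, against 9.38, 9.28 and 9.08 on the Control arrays. The lowest TMAO value lay among the Control values, so the groups overlapped. The difference was 0.16 ± 0.12, with a 95% interval from -0.11 to 0.43 and an adjusted p of 0.963, and it came to 0.08 without Control replicate 3. Mcl1 (TC0200001729.rn.2), whose short-lived protein also guards hepatocytes, had 10.05, 9.94 and 10.05 on the TMAO arrays, against 9.98, 9.96 and 9.84 on the Control arrays. Its 6 values lay within a narrow span and overlapped. The difference of 0.08 ± 0.11 had an interval from -0.16 to 0.33, that is from 0.895-fold to 1.26-fold, and an adjusted p of 0.990, and it came to 0.04 without Control replicate 3.

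The 250 bases before the RefSeq start of Bcl2, the member with the smallest p, are shown in assembly GRCr8, with a match to the letters TGATGNAAN in capitals. These letters, searched on both strands, approximate the CARE, an element known to be bound by CHOP or ATF4 together with C/EBP proteins. Of the 10 genes, 8 had RefSeq promoter entries (Bcl2l1 had several), and 2 of the 8, Bcl2 and Bcl2l1, held a match, as did 3.38% of all 33469 promoter entries and 3.56% of all 27457 genes with an entry. The match in Bcl2 began 244 bases before the start. Bcl2l1 held 2 matches, shown with their neighbouring bases, the first 171 bases before its outermost start and the second 189 and 54 bases before 2 starts further in. The ERSE, an element of ER chaperone genes, the UPRE (TGACGTGG) and the full CRE (TGACGTCA) had 0 matches in the 8 genes, where 0.0657%, 0.520% and 1.59% of all entries held one. A match describes letters only.
Bcl2, chr13:23366901-23367150, minus strand: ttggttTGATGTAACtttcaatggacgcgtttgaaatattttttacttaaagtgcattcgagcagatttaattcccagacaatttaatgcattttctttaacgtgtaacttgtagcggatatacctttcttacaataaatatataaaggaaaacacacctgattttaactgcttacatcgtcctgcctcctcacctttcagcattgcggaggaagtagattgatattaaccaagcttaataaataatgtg
Bcl2l1, chr3:161764926-161764958, minus strand: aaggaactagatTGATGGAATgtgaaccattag
Bcl2l1, chr3:161763419-161763451, minus strand: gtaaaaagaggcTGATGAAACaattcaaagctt

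The pore-forming effectors showed no common direction. Bax (TC0100005392.rn.2) had 8.15, 8.38 and 7.80 on the TMAO arrays, against 8.17, 8.29 and 7.53 on the Control arrays. The arrays numbered 3 were the lowest of both groups, and the groups overlapped almost wholly. The difference was 0.11 ± 0.22, with the widest interval of the 10 genes, from -0.38 to 0.60, and an adjusted p of 0.997, and its sign turned without Control replicate 3 (-0.12) and without TMAO replicate 2 (-0.02). Bak1 (TC2000001140.rn.2), the second pore protein, had 5.95, 5.48 and 5.70 on the TMAO arrays, against 5.87, 6.10 and 5.87 on the Control arrays. Its TMAO values were lower on arrays 2 and 3, while TMAO replicate 1 lay among the Control values. The difference was -0.24 ± 0.14, with an interval from -0.57 to 0.08 and an adjusted p of 0.958, and it came to -0.13 without TMAO replicate 2.

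How Bax stood relative to its opponents is often used to describe readiness for apoptosis. Set against the Control mean, the log2 signal of Bax minus that of Bcl2 was -0.11, 0.03 and -0.68 on TMAO replicates 1, 2 and 3, against 0.06, 0.17 and -0.23 on Control replicates 1, 2 and 3. The means differed by -0.25, but TMAO replicate 3 was the lowest of the 6 and without it the value came to -0.04, and Bcl2 was near background in both groups. With Bcl2l1 in place of Bcl2 the values were -0.05, 0.17 and -0.26 on the TMAO arrays, against 0.04, 0.26 and -0.30 on the Control arrays, and the difference was -0.05. Its sign turned without TMAO replicate 3 (0.06) and without Control replicate 2 (0.08). The groups overlapped in both ratios, and leaving out each array was added after these values were seen.

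**Figure D2:**
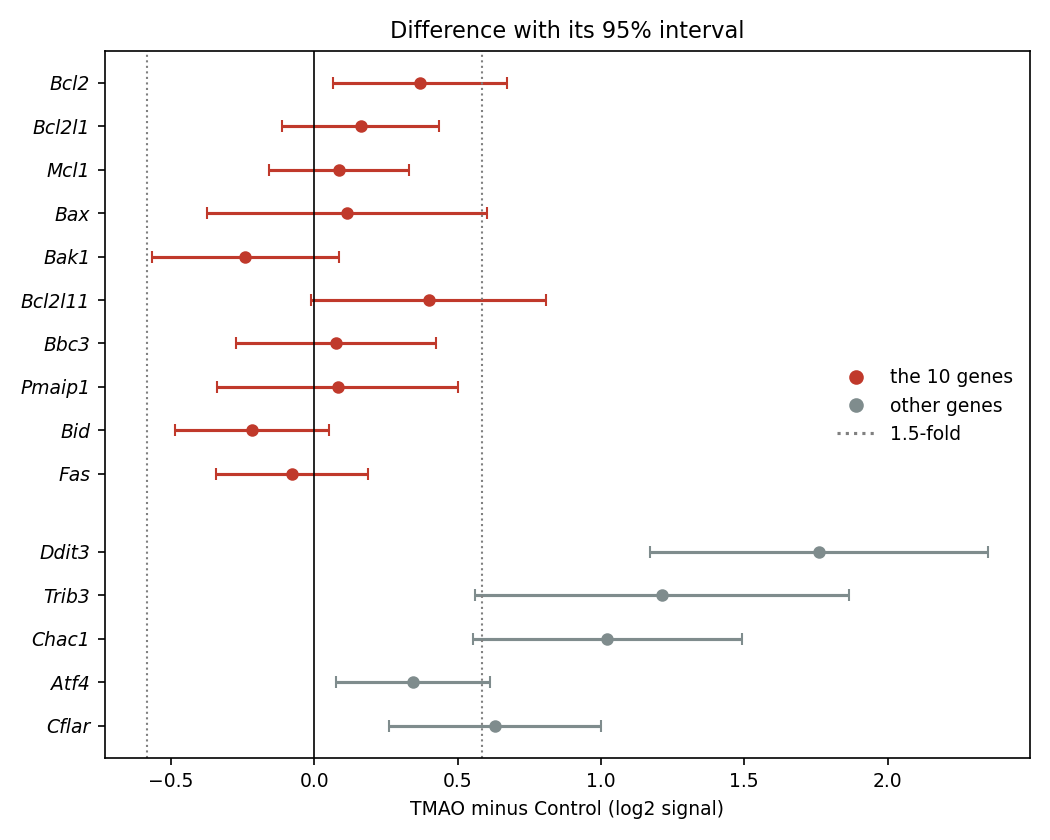
Difference between TMAO and Control (log2 signal, x axis) with its 95% interval from the limma fit (bars) for the 10 genes (red) and for 5 genes of the stress and death receptor routes (grey); dotted lines mark 1.5-fold in either direction. Intervals of the 10 genes all end below 0.81, while the interval of Ddit3 begins at 1.17. All 5 grey genes were higher under TMAO, and the other genes of these routes are not drawn.

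Among the BH3-only genes, Bcl2l11 (TC0300001675.rn.2) had the largest difference of all 10 genes. It encodes BIM, which binds every survival protein of the family. Its signals were 5.64, 5.81 and 5.64 on the TMAO arrays, against 5.14, 5.74 and 5.02 on the Control arrays. Control replicate 2 lay within the TMAO range, and the other 2 Control values lay below it. Averaged over the arrays, the Bcl2l11 signal lay above 80.1% of the negative controls. The means were 5.70 ± 0.10 in TMAO and 5.30 ± 0.38 in Control cells (SD, n = 3 each), a difference of 0.40 ± 0.18, or 1.32-fold, with an interval from -0.01 to 0.81. The unadjusted limma p was 0.0553, the adjusted p 0.933 and the exact permutation p 0.3. Single Control arrays moved the size both ways. The difference was 0.62 without Control replicate 2, with an unadjusted limma p of 0.00175 and an adjusted p of 0.801, and 0.26 without Control replicate 3. Relative to Mcl1, Bcl2l11 stood at 0.22, 0.50 and 0.22 on the TMAO arrays, against -0.21, 0.40 and -0.19 on the Control arrays, with Control replicate 2 inside the TMAO range. Relative to Bcl2l1 it stood at 0.13, 0.30 and 0.28 on the TMAO arrays, against -0.30, 0.41 and -0.11 on the Control arrays, with Control replicate 2 above all TMAO values. The mean differences were 0.31 and 0.24, and without Control replicate 1 they came to 0.21 and 0.09, without Control replicate 2 to 0.51 and 0.44. Of all genes, 97.3% had a smaller difference in size than Bcl2l11 and 96.4% a smaller one than Bcl2.

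Bbc3 (TC0100000927.rn.2), which encodes PUMA, had 6.39, 6.25 and 5.95 on the TMAO arrays, against 6.30, 5.90 and 6.17 on the Control arrays. Its values were interleaved, with a difference of 0.08 ± 0.15, an interval from -0.27 to 0.42 and an adjusted p of 0.997. The sign turned without TMAO replicate 1 (-0.02) and without Control replicate 2 (-0.04). Pmaip1 (TC1800000712.rn.2) encodes NOXA, which binds MCL1. It had 4.29, 3.95 and 4.74 on the TMAO arrays, against 4.23, 4.16 and 4.35 on the Control arrays. Both means were near background, TMAO replicate 3 was the highest of the 6 and TMAO replicate 2 the lowest, and the difference of 0.08 ± 0.19 came to -0.13 without TMAO replicate 3. The interval ran from -0.34 to 0.50, with an adjusted p of 0.997.

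Bid (TC0400003668.rn.2), the link between death receptors and mitochondria, had 7.18, 7.10 and 7.33 on the TMAO arrays, against 7.31, 7.42 and 7.54 on the Control arrays. The groups overlapped only in that TMAO replicate 3 exceeded Control replicate 1. Each TMAO array was below the Control array of the same number, while Bcl2, Bcl2l1 and Bcl2l11 were above it at every number. The difference was -0.22 ± 0.12, with an interval from -0.49 to 0.05 and an adjusted p of 0.958. Fas (TC0100003512.rn.2), the receptor whose ligation kills hepatocytes readily, had 6.60, 6.53 and 6.80 on the TMAO arrays, against 6.74, 6.77 and 6.65 on the Control arrays. TMAO replicate 3 was the highest of the 6 and the other 2 TMAO values were the lowest. The difference was -0.08 ± 0.12, with an interval from -0.34 to 0.19 and an adjusted p of 0.994, and it ran from -0.16 without TMAO replicate 3 to -0.02 without TMAO replicate 2.

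The sequences before the starts of Bcl2l11 and Pmaip1, shown because the first had the largest difference and the second holds a CRE variant, are again 250 bases long in GRCr8. Bcl2l11 held 0 matches to the motifs searched, and its stretch was 72.0% G or C, where Bcl2 had 33.6% and the median of all entries was 51.2%. Pmaip1 held TTACGTCA, in capitals, 57 bases before its start. This variant of the CRE was added to the search after the sequence was seen, and 0.750% of all entries held it.
Bcl2l11, chr3:135819792-135820041, plus strand: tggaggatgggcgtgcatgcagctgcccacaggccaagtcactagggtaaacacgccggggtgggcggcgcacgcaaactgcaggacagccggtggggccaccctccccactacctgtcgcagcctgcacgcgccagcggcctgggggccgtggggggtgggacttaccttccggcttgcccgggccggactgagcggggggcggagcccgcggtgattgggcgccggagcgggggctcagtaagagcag
Pmaip1, chr18:62255720-62255969, plus strand: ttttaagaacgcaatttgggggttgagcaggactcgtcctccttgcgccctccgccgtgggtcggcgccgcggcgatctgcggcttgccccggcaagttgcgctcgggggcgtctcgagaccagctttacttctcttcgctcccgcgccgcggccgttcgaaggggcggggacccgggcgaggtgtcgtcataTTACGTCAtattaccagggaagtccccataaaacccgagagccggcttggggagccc

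The 95% intervals bound how far the levels may have moved on these arrays. All 10 excluded a 2-fold difference in either direction, and all 10 excluded a 1.5-fold decrease. A 1.5-fold increase was excluded for 7 and not for Bcl2l11 (up to 1.75-fold), Bcl2 (up to 1.59-fold) and Bax (up to 1.52-fold). These intervals are not adjusted for the number of genes, and for Bcl2 and Pmaip1 they bound a signal near background rather than a level.

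**Figure D3:**
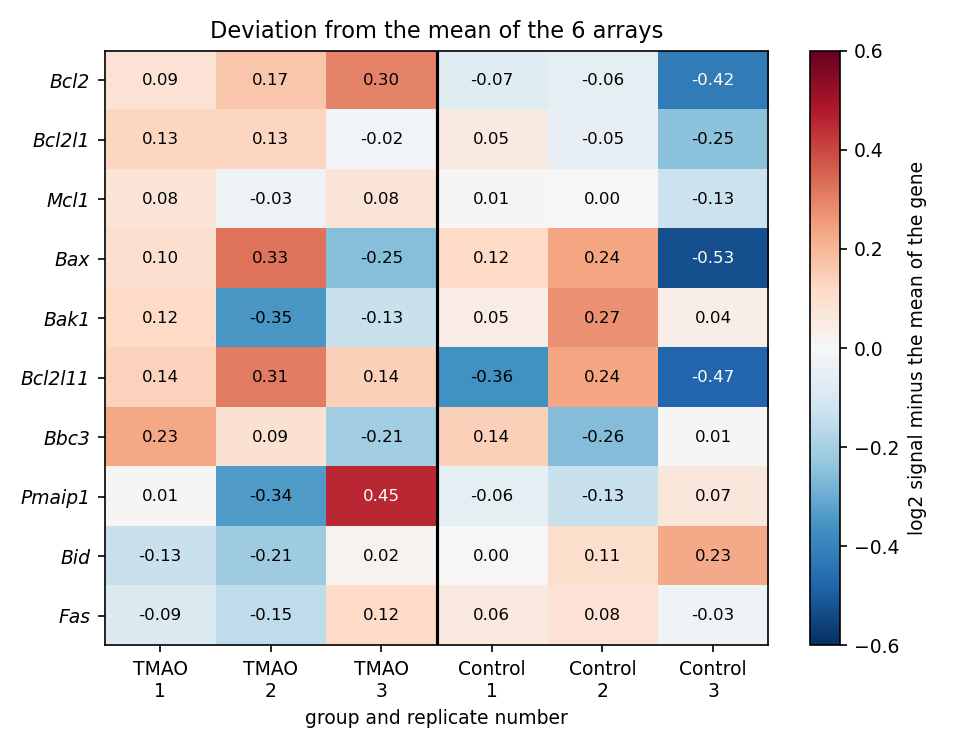
Log2 signal of each gene (rows) on each array (columns, TMAO left, Control right) minus the mean of that gene over the 6 arrays, printed in each cell and coloured from blue (lower) to red (higher). Control replicate 3 is the lowest array for Bcl2, Bcl2l1, Mcl1, Bax and Bcl2l11, with deviations of -0.42, -0.25, -0.13, -0.53 and -0.47.

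Single arrays weighed on several of these genes, as the map of deviations by array shows. Control replicate 3 had the lowest value of the 6 for the 3 survival genes Bcl2, Bcl2l1 and Mcl1, with deviations of -0.42, -0.25 and -0.13 from their means. It was also lowest for the killers Bax (-0.53) and Bcl2l11 (-0.47), and highest for Bid (0.23). The other killer genes lay near their means there, with deviations of 0.04 for Bak1, 0.01 for Bbc3 and 0.07 for Pmaip1, as did Fas at -0.03. Bax and Bcl2l1 were lowest on the arrays numbered 3 of both groups, and Bid and Pmaip1 highest on them, 2 genes each. Whether equal numbers share an animal or a preparation was not tested.

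The genes whose profiles over the 6 arrays were most like that of Bcl2, by the mean absolute difference after centring, were Smim14 (0.02), Spopl (0.03) and Tm2d1 (0.04). Their signals averaged 9.72, 9.05 and 7.15 in TMAO and 9.38, 8.69 and 6.85 in Control cells. For Bcl2l11 they were Or4b13b (0.06), Trem1 (0.07) and Or4a15b (0.07), of which both Or4 genes, olfactory receptors, had signals near background (4.34 and 3.64 in TMAO, 4.06 and 3.30 in Control cells).

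The 10 genes can be read beside the stress pathway of CHOP, for which Bcl2l11 and Bbc3 have been described as targets. Whether it acted on any of the 10 here was not tested. The CHOP and ATF4 axis had higher means under TMAO for all 8 of its measured genes, with a median difference of 0.51, and 5 of 8 had an unadjusted limma p under 0.05, against 5.49% of all genes, while 0 of 8 passed after adjustment. The median came to 0.33 with array weights, and this list was chosen with such results known. Ddit3, which encodes CHOP, had 8.39, 8.13 and 9.30 on the TMAO arrays, against 6.82, 6.70 and 7.02 on the Control arrays. Every TMAO array was above every Control array, and the difference of 1.76 ± 0.26 had an interval from 1.17 to 2.35 and an adjusted p of 0.102. Trib3, a pseudokinase induced by CHOP, differed by 1.21 ± 0.29 and Chac1, which degrades glutathione, by 1.02 ± 0.21 (adjusted p of 0.535 and 0.295), both with no overlap. Without TMAO replicate 3 the differences of Ddit3, Trib3 and Chac1 came to 1.42, 0.85 and 0.83. Atf4, the transcription factor upstream of CHOP, differed by 0.34 ± 0.12, and Ppp1r15a, a phosphatase subunit of the same list singled out after its value was seen, by 0.67 ± 0.27. Ppp1r15a came to 0.40 without TMAO replicate 3 and to 0.42 without Control replicate 3. The rest of the list differed little, with Eif2ak3 at 0.08 ± 0.17, Ero1a at 0.09 ± 0.13 and Atf3 at 0.21 ± 0.15. Their groups overlapped, and none had an unadjusted limma p under 0.05. The interval of Ddit3 lay wholly above those of all 10 apoptosis genes, among them Bcl2l11 and Bbc3.

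Chac1 and Trib3 also held TGATGNAAN, on the opposite strand, and their matches are set out for comparison with those of Bcl2 and Bcl2l1. They began 168 bases before the start of Chac1 and 22 bases before that of Trib3, and 2 of the 6 genes of this axis with a promoter entry held one.
Chac1, chr3:126795951-126795983, plus strand: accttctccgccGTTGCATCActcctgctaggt
Trib3, chr3:161275535-161275567, minus strand: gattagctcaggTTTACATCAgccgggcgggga

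Beyond the 10 genes, 6 further lists covered 79 entries, of which 71 were measured and 8 were not analysed here. Of the 71, 13 had an unadjusted limma p under 0.05, 10 higher and 3 lower, and 0 passed after adjustment. These 13 were 18.3% of the 71, against 5.49% of all genes, and 5 of them belonged to the CHOP and ATF4 axis. In the rest of the BCL2 family, 1 of 13 genes had such a p, with a median difference of 0.02. Bnip3, an outer membrane protein of mitophagy, had 8.05, 7.93 and 8.47 on the TMAO arrays, against 7.90, 7.74 and 7.74 on the Control arrays. The groups were apart, with a difference of 0.36 ± 0.15 (adjusted p of 0.909) that came to 0.20 without TMAO replicate 3. Hrk, a BH3-only gene, was also apart, at 5.47, 5.46 and 5.72 in TMAO, against 5.07, 5.24 and 5.46 in Control cells, with a difference of 0.30 ± 0.14. Bmf, a BH3-only gene tied to the cytoskeleton, had a difference of -0.18 ± 0.17, which came to -0.03 without Control replicate 2, -0.04 without TMAO replicate 2 and -0.30 without TMAO replicate 1.

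Around Fas, 4 of 15 genes of death receptor signalling had an unadjusted limma p under 0.05 (5.49% of all genes), 2 higher and 2 lower, with a median difference of 0.02. Cflar encodes FLIP, which keeps caspase 8 from being activated at the receptor. It had 8.21, 8.18 and 8.72 on the TMAO arrays, against 7.56, 7.83 and 7.83 on the Control arrays. Every TMAO array was above every Control array, and the difference was 0.63 ± 0.16, or 1.55-fold, with an interval from 0.26 to 0.999, an unadjusted limma p of 0.00374 and an adjusted p of 0.581. Without TMAO replicate 3, its highest array, it came to 0.46. Tradd, the adaptor of the TNF receptor, had 5.12, 5.14 and 5.34 on the TMAO arrays, against 5.59, 5.72 and 5.42 on the Control arrays. All TMAO values were below all Control values, and differed by -0.38 ± 0.13 (adjusted p of 0.856). Traf2, a ubiquitin ligase of the same complex, differed by 0.39 ± 0.16 and came to 0.22 without TMAO replicate 3, and Tnfsf10, the ligand TRAIL, singled out from the list after its value was seen, differed by -0.44 ± 0.19. Casp8, the caspase that Fas recruits, averaged 6.84 ± 0.04 in TMAO and 6.87 ± 0.15 in Control cells (SD, n = 3 each).

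Downstream, 2 of 16 caspases and caspase regulators had an unadjusted limma p under 0.05, against 5.49% of all genes. Casp12, a caspase of the rodent ER, had 9.44, 9.36 and 9.55 on the TMAO arrays, against 9.20, 9.23 and 8.996 on the Control arrays, with no overlap. Its difference was 0.31 ± 0.12 (adjusted p of 0.895). Casp2 had 7.67, 7.74 and 7.41 on the TMAO arrays, against 7.91, 7.96 and 7.81 on the Control arrays, also with no overlap. Its difference was -0.29 ± 0.12 (adjusted p of 0.909), and it came to -0.19 without TMAO replicate 3. Dffb, the nuclease that cuts DNA in apoptosis, differed by 0.24 ± 0.12, and Casp9, started by cytochrome c, averaged 5.37 ± 0.22 in TMAO and 5.39 ± 0.20 in Control cells (SD, n = 3 each).

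Of 12 partners of BCL2 proteins and kinases acting on them, 0 had an unadjusted limma p under 0.05, against 5.49% of all genes. The median difference of these 12 was -0.04. The 3 of smallest p were Mapk8, a JNK kinase (0.19 ± 0.12), Itpr3, a calcium channel of the ER (-0.20 ± 0.14), and Vdac1, a channel of the outer mitochondrial membrane (-0.13 ± 0.11). Mapk8 came to 0.11 without TMAO replicate 1 and 0.12 without Control replicate 3, and Itpr3 to -0.33 and -0.10 without TMAO replicates 1 and 3. Vdac1 came to -0.08 without Control replicate 1 and also without TMAO replicate 3. Of 7 genes of the p53 axis, another known inducer of Bbc3, Pmaip1 and Bax, 1 had such a p, against 5.49% of all genes. This was Tp53inp1, a stress-induced p53 partner, which differed by 0.37 ± 0.15 and came to 0.21 without TMAO replicate 3. Ei24 and Cdkn1a, the cell cycle inhibitor p21, differed by 0.11 ± 0.11 and 0.10 ± 0.12, and Cdkn1a came to 0.03 without Control replicate 3 and 0.06 without TMAO replicate 3.

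**Figure D4:**
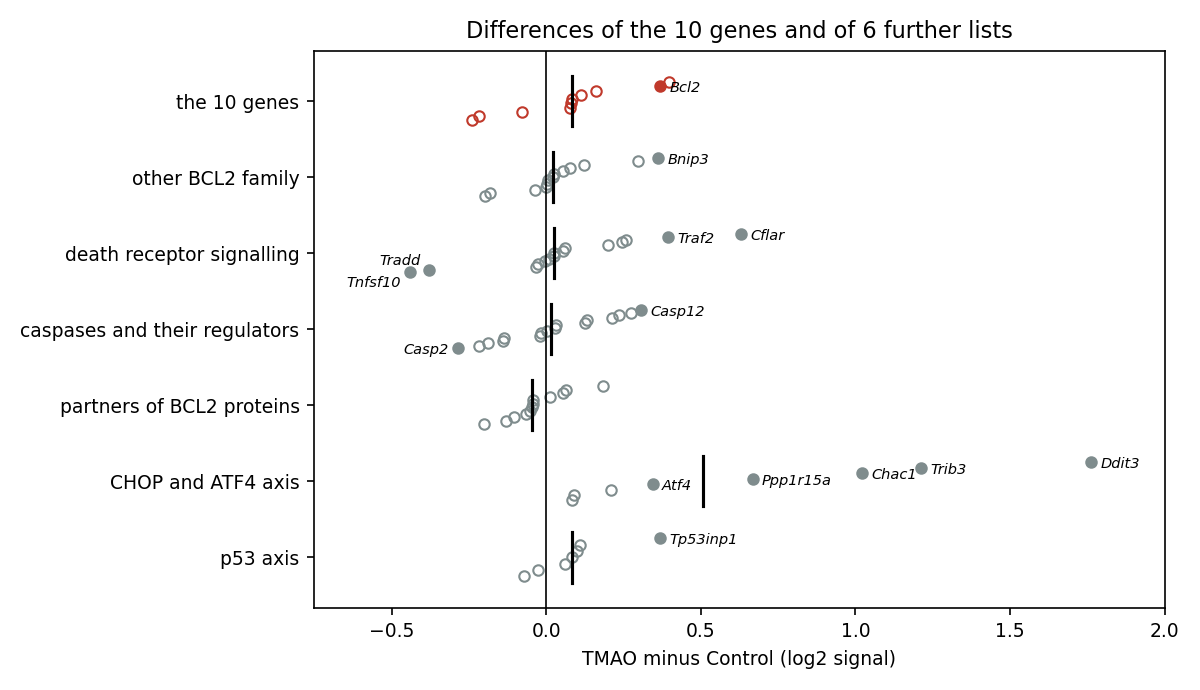
Difference between TMAO and Control (log2 signal, x axis) of every measured gene of the 10 described here (red) and of 6 further lists (grey), 1 row a list. Filled and named points had an unadjusted p under 0.05 and black lines are list medians, which lie between -0.04 and 0.08 except for the CHOP and ATF4 axis at 0.51.

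Markers of other cells were set beside these values because Fas, Bcl2 and Cflar are also expressed outside hepatocytes. Macrophage markers were lower under TMAO for 7 of 8 genes, with summed linear signals of 428 to 458 on the TMAO arrays, against 464 to 558 on the Control arrays. Cd68 (7.21 in TMAO and 7.50 in Control cells) and C1qa (7.49 and 7.62) weighed most in these sums, and each overlapped between groups. Of all genes, 49.0% had a higher mean under TMAO. The 2 macrophage markers with an unadjusted limma p under 0.05 were both lower, as were 2.48% of all genes at that limit. Of the 8, 4 were near background in both groups, among them Vsig4, 1 of these 2 (4.09 in TMAO and 4.47 in Control cells). The other, Cd163, was near background in TMAO cells (4.87, against 5.25 in Control cells). Endothelial markers were lower for 6 of 7, with summed signals of 146 to 150 on the TMAO arrays, against 142 to 189 on the Control arrays. Only Cdh5 had an unadjusted limma p under 0.05 (lower, as for 2.48% of all genes). It was among the 5 of the 7 near background in both groups, at 3.70 in TMAO and 4.26 in Control cells. Stellate and fibroblast markers were lower for 6 of 8, at 424 to 581 on the TMAO arrays, against 542 to 673 on the Control arrays. Cholangiocyte markers were higher for 4 of 5 and summed to 188 to 279 on the TMAO arrays, against 201 to 246 on the Control arrays. Lymphocyte and neutrophil markers, all near background in both groups, were higher for 4 of 6. Of these, Cd79b alone had an unadjusted limma p under 0.05 (3.01% of all genes were higher at that limit). It averaged 4.39 in TMAO and 4.06 in Control cells, with no overlap. Hepatocyte markers were lower for 6 of 9, of which Fgb, a fibrinogen chain, did not overlap between groups (means of 9.83 in TMAO and 10.11 in Control cells). The part of these cells in the values of the 10 genes was not tested.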

How the data were processed

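Total RNA of 6 cultures was hybridised to rat Affymetrix arrays after biotin labelling, per the labels' protocols. The authors deposited log2 signals, 1 for every probe set on every array. Their background correction, normalization and summary steps were not given in the sources used here, so the log base was taken from the range of the values. Limma appears in the submitters' processing notes without a role. Another deposited table has 6 numbered columns that no label ties to samples, and it was not used. Of 24871 probe sets, 1683 controls were left out; 15049 of the other 23188 had 1 gene symbol, 0 had several and 8139 had none. The probe set of highest mean stood for each of 15037 genes.

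TMAO was compared with Control in limma 3.58.1 (R 4.3.3; lmFit, eBayes, group as the only term), two-sided, with Benjamini-Hochberg adjustment over all 15037 genes and a threshold of 0.05. The procedure was tested on simulated data. Intervals are 95% intervals of this fit, and the number of arrays limits their precision. Exact permutation tests used scipy 1.17.1. The alternatives were other normalizations, estimates of spread, array weights, probe set rules, a filter on dim genes, a replicate block and leaving out each array. The genes and lists were chosen with earlier results of these data known. All 10 genes are given, with the 3 of smallest unadjusted p in each further list, Casp8, Casp9, Ddit3 and Atf4, and, for the 2 of the 10 with the smallest p, the 3 genes of most similar profile. Promoter sequences are RefSeq entries of assembly GRCr8, cut to 250 bases before the start. Probe set coordinates are not given because no build is named for them.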

Additional observations from a re-analysis of the deposited data

How the results depend on the processing

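The 10 genes had adjusted p above 0.05 wherever the 14 alternatives tested them, with a lowest value of 0.608 for Bcl2 with array weights, and 131 of 136 differences kept their sign. The other 5 turned with 1 array left out, where Bbc3 ran from -0.0364 to 0.199, Pmaip1 from -0.126 to 0.270 and Bax from -0.121 to 0.270. Trend and robust estimation, the probe set rules and the replicate block leave these differences unchanged by design. So does the filter for the genes it kept, so many of the 131 could not have turned. Of named genes, Casp8 ran from -0.110 to 0.0315 and Casp9 from -0.101 to 0.106, and Casp9 came to 0.0499995 with array weights. Ddit3 passed with trend and robust estimation (adjusted p of 0.0205) and array weights (0.0442). These weights were lowest for TMAO replicate 3 (0.51) and Control replicate 3 (0.54). With them the differences of Bcl2 and Bcl2l11 came to 0.27 and 0.25. The 1 of the 10 with an unadjusted p under 0.05 became 2 with quantile normalization, median centring, array weights and the replicate block, 0 with the filter on dim genes, which removed Bcl2, Bcl2l11, Pmaip1 and Bak1, and 0 to 2 with 1 array left out. Of all genes, 4 passed after adjustment, against 30 with trend and robust estimation, 7 with array weights, 9 with the filter, which tests fewer genes, 0 with every probe set tested, 0 with the replicate block and 0 to 2 with 1 array left out. Over the smaller number of genes that the filter kept, 511 had an unadjusted limma p under 0.05, against 825 of all genes. In the same way, 957 had groups that did not overlap, against 1630 of all genes. The filter kept only genes at or above the median signal, so these lower counts do not mean lower shares. Past 1.5-fold as well, 84 to 166 remained with 1 array left out, against 99. Apart from the smaller number of genes under the filter, the cause of these moves was not tested. Between arrays of equal number, the deviations from group means had correlations of 0.13, 0.10 and -0.01. Between arrays of unequal number they ran from -0.13 to 0.03. Deviations within a group depend on each other, so these values cannot decide whether equal numbers are pairs. The main fit did not pair the arrays. With the replicate block the difference of Bcl2 had an unadjusted limma p of 0.0419 and an adjusted p of 0.895. That of Bcl2l11 had 0.0283 and 0.859. Signals near background limit Bcl2 and Pmaip1. To a lesser degree they limit Bcl2l11, Bak1, Bbc3 and Fas, which lay above 80.1%, 85.3%, 88.6% and 92.3% of the negative controls.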
